A study of Danio rerio with 12 samples.

Results

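The genes described here are 43 zebrafish genes of the unfolded protein response and the integrated stress response, out of 32520 genes measured in whole liver. They are 20 chaperones and folding enzymes of the endoplasmic reticulum (ER), 6 genes of ER-associated degradation, 4 stress sensors and factors, and 13 genes of the arm controlled by the transcription factor ATF4. Members were taken by zebrafish gene symbol, ignoring case, and all 43 were found among the Ensembl identifiers. The pair of dnajb9 copies (dnajb9a and dnajb9b) could not be told apart by name, so they are printed with their identifiers.

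RNA of adult whole liver was sequenced from 6 wild-type (glo2+/+) and 6 homozygous knockout (glo2-/-) samples. The knockout of glyoxalase 2, an enzyme that completes the detoxification of methylglyoxal, was made with CRISPR. All 12 samples, controls included, carried the transgene Tg(fli1:EGFP), which labels endothelial cells, and all are marked as not trained. The labels give no sex and do not say whether the libraries are from different fish. The p-values therefore rest on the spread among these libraries, part of which may be technical. Where single livers are named or counted below, a liver means a library.

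The ER folds secreted and membrane proteins, and the liver, which secretes most plasma proteins, is rich in it. When unfolded proteins accumulate, sensors in the ER membrane raise the transcription of chaperones and degradation factors and slow translation. The integrated stress response shares the step that slows translation, in which a kinase phosphorylates the initiation factor eIF2α and ATF4 is made, and it also answers to amino acid shortage and other stresses.

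Levels are given as CPM, the counts per 1000000 counts after scaling between libraries, and differences as log2 fold changes of glo2-/- minus glo2+/+ from edgeR's quasi-likelihood test with Benjamini-Hochberg adjustment. The libraries held 17433960 to 18465485 estimated counts each, and no pair of libraries agreed within sampling noise. Hepatocyte markers were abundant in every library: 15 of 15 were detected, with a summed level of 201485 to 370608 CPM. The targeted gene, HAGH, lay between 91.6 and 105 CPM in glo2+/+ and between 76.1 and 88.1 CPM in glo2-/- livers. These ranges did not overlap, as was so for 0.248% of all tested genes. Its RNA thus persisted at the gene level but was lower in every glo2-/- library (log2 fold change -0.22, adjusted p = 0.819). In whole liver, fewer cells of a type and less RNA per cell cannot be told apart.

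Per transcript length, hspa5 had the highest mean and the highest median of the members in both genotypes. In TPM, which divides by length and can be compared between genes, hspa5 averaged 686 over the 12 libraries (147 to 1361). It was followed by hsp90b1 with 327 TPM, pdia3 with 296 and calr3a with 266. Outside the chaperones the highest means were those of xbp1 with 244 TPM and chac1 with 173, and atf4a and atf4b stood at 107 and 106. The order of means below hspa5 differed between the genotypes. By mean, xbp1 was second in glo2+/+ livers with 281 TPM, above pdia3 with 263 and hsp90b1 with 261. That mean included a highest liver of 499 TPM. By median, xbp1 stood at 249 TPM in glo2+/+ livers, below pdia3 with 272 and calr3a with 262 and above hsp90b1 with 244. In glo2-/- livers the xbp1 mean of 207 TPM was below those of hsp90b1, pdia3 and calr3a. At the other end, psat1 averaged 1.05 TPM and ppp1r15b 0.144 TPM. Of phgdh, the first enzyme of serine synthesis, 1 count was found among 217394665 counts in all libraries. With 0 counts, a library allows a level of up to 0.162 to 0.172 CPM (3 counts, counting error only). Whether the quantification covered the main transcript of phgdh was not tested, so its level in liver is not settled by this count. Between hspa5 and hsp90b1, and between pdia3 and calr3a, the ranges over libraries overlapped. The lowest hspa5 value, 147 TPM in a glo2+/+ library, was below the lowest pdia3 value of any library, 190 TPM.

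No member passed the test between the genotypes. Of the 41 members abundant enough to test (all but ppp1r15b and phgdh), 0 had an adjusted p under 0.05, where 0.00689% of the 14509 tested genes did. At an unadjusted p under 0.05 there were 2 members, or 4.88% of them, against 5.88% of all tested genes. They were edem1, higher in glo2-/- like 2.47% of all tested genes, and xbp1, lower like 3.41%. DESeq2, which tested all 43, also called 0 members. It had 2 at an unadjusted p under 0.05, and the share of all genes at that level in that fit is not given here. The levels of the genotypes overlapped for each of the 41, where 0.248% of all tested genes did not overlap. Log2 fold changes were positive for 30 of the 41 members and for 47.6% of all tested genes, and their 95% intervals contained 0 for 39 of 41. By arm, values were positive for 18 of 20 chaperones, 6 of 6 degradation genes, 1 of 4 sensors and factors, and 5 of 11 ATF4-arm genes. Without glo2+/+ replicates 1 and 3 the counts were 13, 5, 1 and 7. Differences between the arms were not tested.

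**Figure D1:**
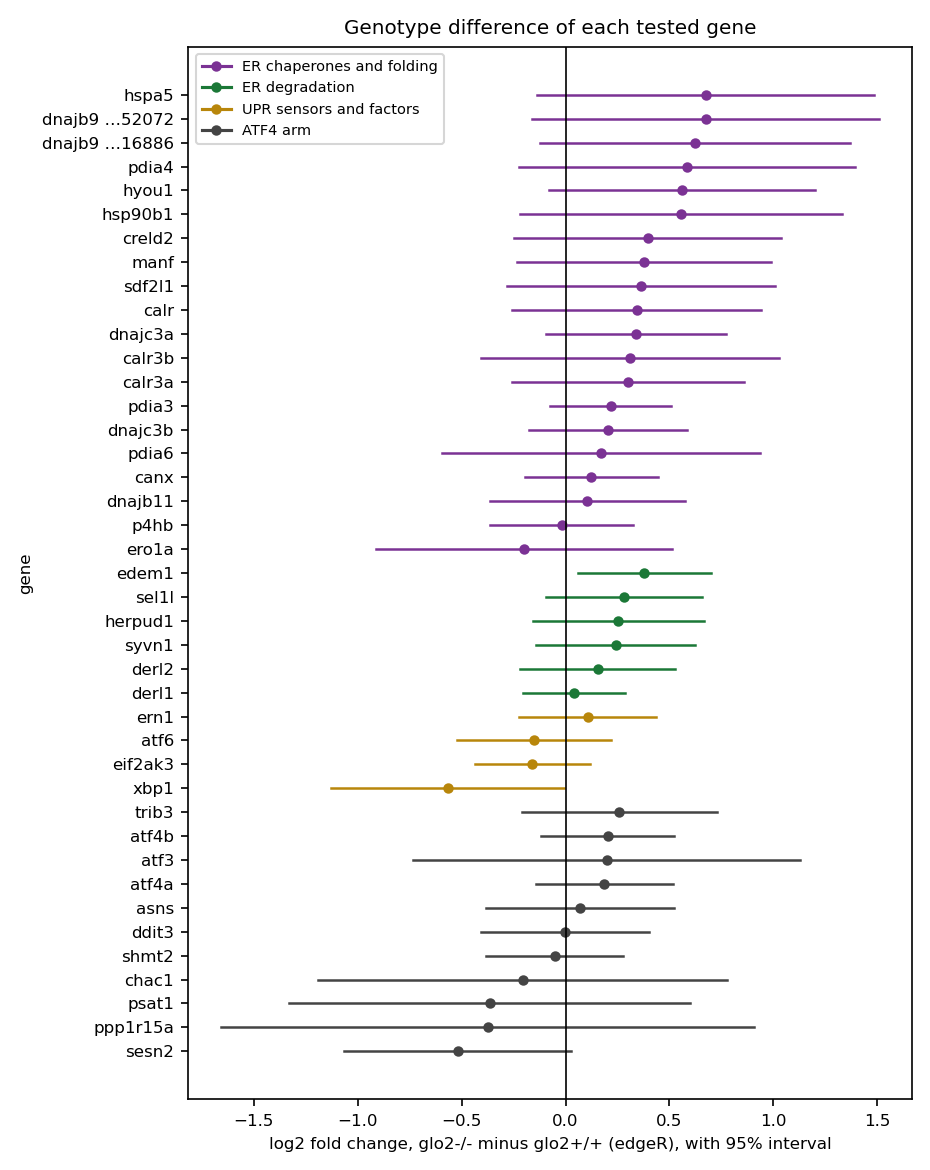
Log2 fold change (glo2-/- minus glo2+/+, edgeR, 6 libraries per genotype) of each of the 41 tested genes, with its 95% interval, coloured by arm. Most chaperones lie to the right of 0 with intervals that include 0, edem1 and xbp1 are the genes whose intervals leave 0 out, and the ATF4 arm lies on both sides.

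Chaperone levels spread widely among livers, above all among the wild types. Over all 12 libraries, the lowest and highest level of a chaperone were 4.01-fold apart in the median (1.56 to 13.0-fold), against 2.07-fold for the degradation genes, 1.82-fold for the sensors and factors and 2.66-fold for the ATF4 arm. Within glo2+/+ the median for the chaperones was 3.65-fold and within glo2-/- 1.99-fold. The spread of the chaperones within a genotype (median SD 0.59 on the log2 scale) lay at the 79.0th percentile of all tested genes in the median. A pair of wild-type livers was low in most of these genes. Replicate 3 of glo2+/+ was the lowest library for 15 of the 20 chaperones and replicate 1 for 3, and for 13 chaperones they were the 2 lowest libraries. Relative to each gene's mean, the median deviation was -1.22 log2 units in replicate 3 and -0.75 in replicate 1. At the upper end, glo2-/- replicate 5 was the highest library for 11 chaperones, with a median deviation of 0.68, followed by glo2+/+ replicate 5 with 0.45. Next by median deviation came glo2-/- replicates 4 and 3 with 0.37 and 0.35. The 2 lowest livers were thus wild type, and at the upper end glo2+/+ replicate 5 lay among knockouts.

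**Figure D2:**
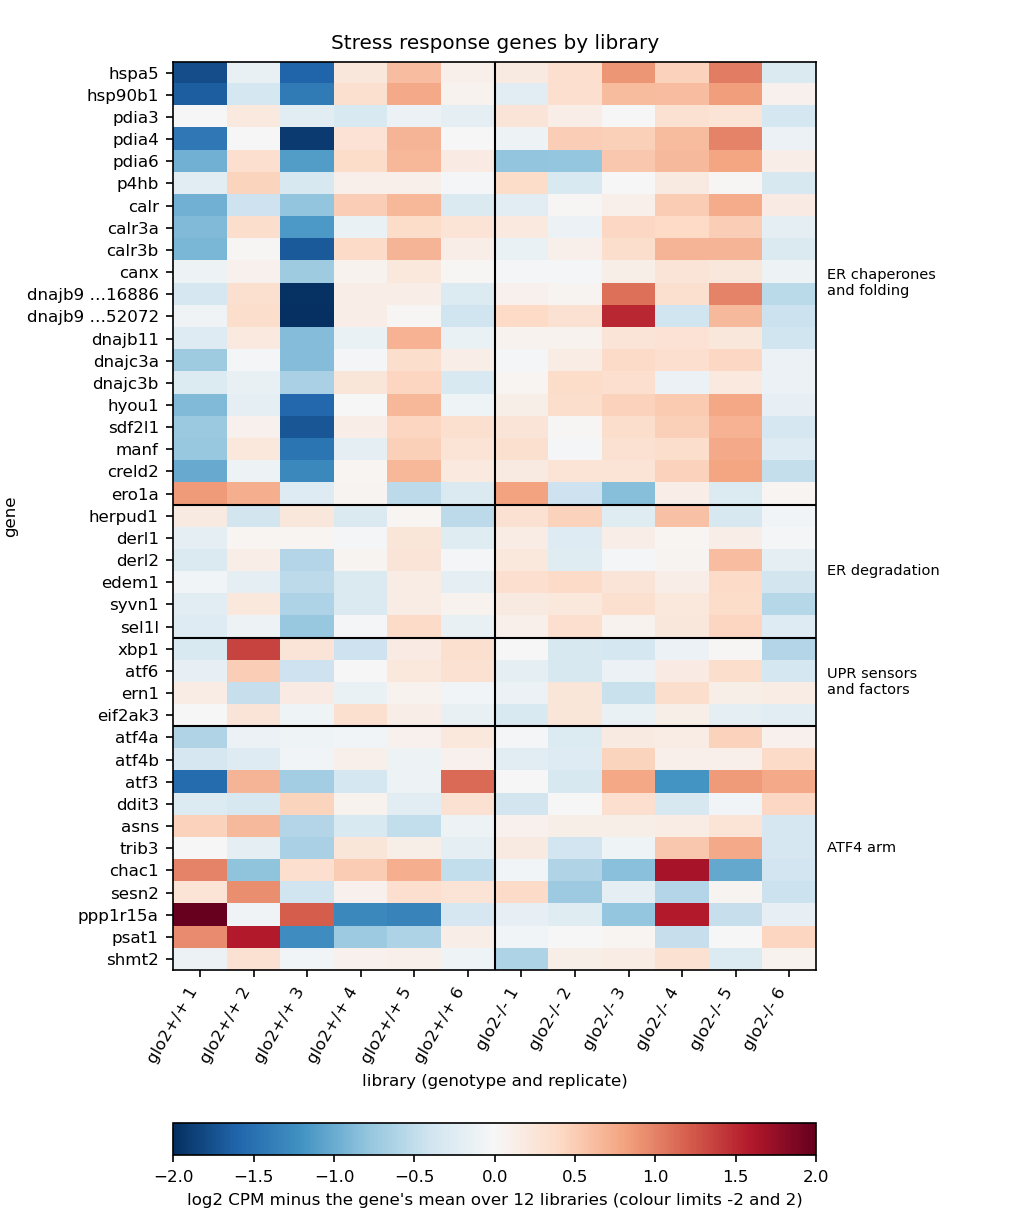
Level of each tested gene (rows, by arm) in each of the 12 libraries (columns, genotype and replicate), as log2 CPM minus the gene's mean over the libraries, with colours limited at -2 and 2. The columns of glo2+/+ replicates 1 and 3 are blue through most of the chaperone block, and no such column runs through the ATF4 arm.

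hspa5 encodes BiP, the abundant HSP70 chaperone of the ER lumen that also keeps the stress sensors inactive. It ranged from 352 to 1842 CPM in glo2+/+ livers with a median of 1187, and from 982 to 2432 CPM in glo2-/- livers with a median of 1583. The 2 lowest values, 352 and 398 CPM, were those of glo2+/+ replicates 1 and 3. The other 4 wild-type livers lay within the range of the knockouts. The log2 fold change was 0.67 (SE 0.38, 95% interval -0.13 to 1.48, adjusted p = 0.828). With those 2 livers left out, a choice made after seeing the values, it was 0.27 (adjusted p = 1.00).

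Of the genes that work directly with BiP, the 3 with the smallest p-values were lowest in glo2+/+ replicate 3. hyou1, the nucleotide exchange factor of BiP, ranged from 77.6 to 363 CPM in glo2+/+ (median 210) and from 205 to 395 CPM in glo2-/- livers (median 306). Its log2 fold change was 0.56 (SE 0.30, adjusted p = 0.819), and 0.24 without glo2+/+ replicates 1 and 3. The dnajb9 copies encode ERdj4, a J-domain co-chaperone of BiP that is known in mammals to restrain the sensor IRE1. dnajb9 (ENSDARG00000016886) spanned 4.85 to 24.4 CPM in glo2+/+ (median 18.7) and 13.3 to 41.9 CPM in glo2-/- livers (median 22.5). The lesser copy, dnajb9 (ENSDARG00000052072), spanned 0.996 to 5.78 CPM (median 4.41) and 3.32 to 12.9 CPM (median 5.75). Both copies were highest in glo2-/- replicate 3, with 8.64-fold and 13.0-fold between their lowest and highest libraries. The log2 fold change was 0.62 (SE 0.35) for the first and 0.67 (SE 0.39) for the second, each with an adjusted p of 0.828, on 15 to 251 counts per library for the lesser copy.

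Among the remaining chaperones, the highest positive log2 fold changes were those of pdia4, a disulfide isomerase (0.59, SE 0.38), and hsp90b1, the HSP90 of the ER (0.56, SE 0.36). The lectin chaperones calr, calr3a, calr3b and canx, which bind folding glycoproteins, lay between 0.12 and 0.34. creld2, manf and sdf2l1, small ER proteins known in mammals as targets of the response, lay at 0.40, 0.38 and 0.36. p4hb, the main disulfide isomerase, was at -0.02, and ero1a, the oxidase that recharges such isomerases, at -0.20 on 18 to 58 counts per library. The smallest adjusted p among the 20 was 0.819. The median log2 fold change of the chaperones was 0.34, where that of all tested genes was -0.01. Without glo2+/+ replicates 1 and 3 it was 0.06, 13 of the 20 were positive and 50.6% of all tested genes were.

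**Figure D3:**
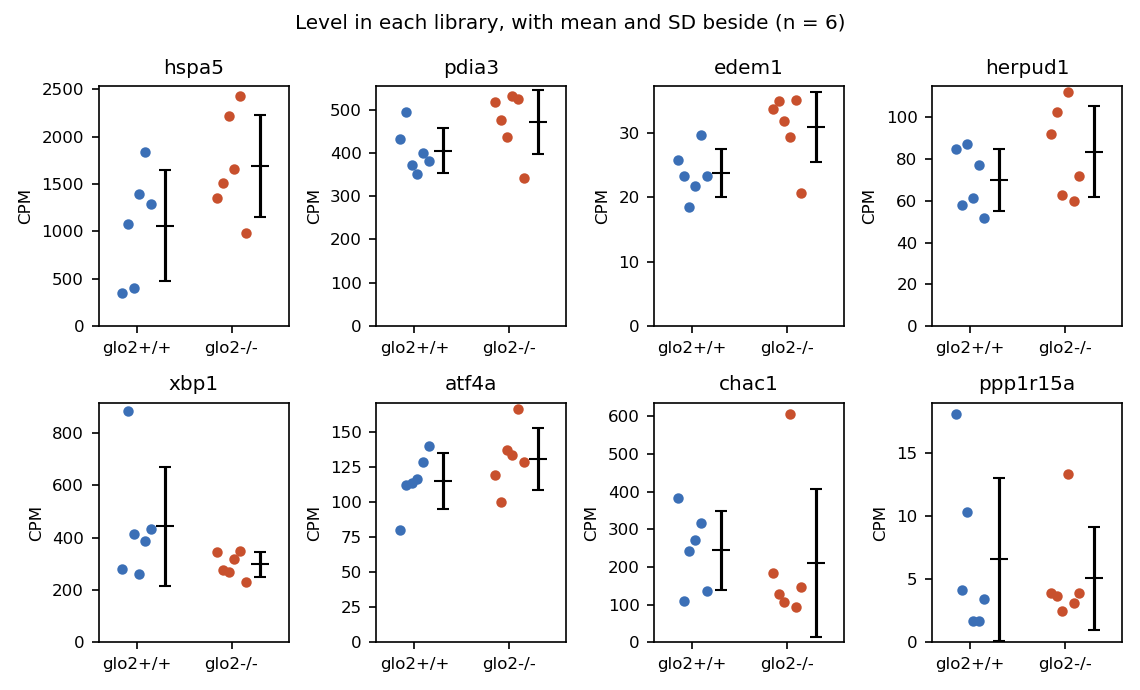
CPM in each of the 6 glo2+/+ (blue) and 6 glo2-/- (red) libraries for 8 genes, with the mean and SD of each genotype beside the points. The genotypes overlap in every panel. In hspa5 2 wild-type livers are low, and in xbp1 1 is high. In chac1 glo2-/- replicate 4 is high, and in ppp1r15a that liver and glo2+/+ replicates 1 and 3 are high.

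Across livers the chaperones varied together. Over the 190 pairs of chaperones, with genotype means removed, the median Pearson r of log2 CPM was 0.753, and 171 pairs were positive. The median over the 105248285 pairs of all tested genes was -0.0005. The closest pair was pdia4 with calr3b (r = 0.980). Within glo2+/+ alone the median was 0.825 and within glo2-/- alone 0.651, so libraries low in one chaperone were low in others in both genotypes. Without glo2+/+ replicates 1 and 3 it was 0.574. These are descriptions over 12 shared libraries, and the points of each pair share library preparation and depth.

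**Figure D4:**
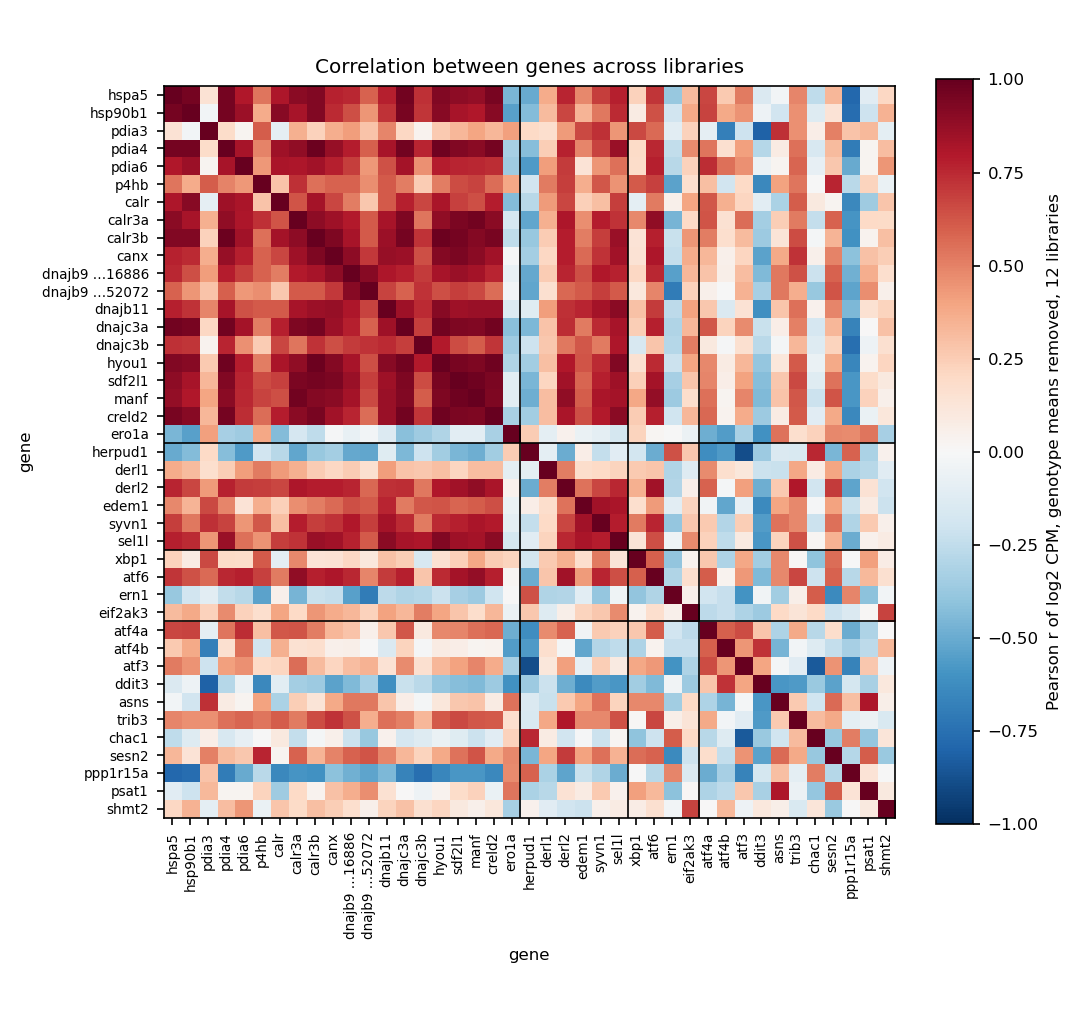
Pearson r of log2 CPM between each pair of the 41 tested genes over 12 libraries, genotype means removed, with lines between the arms. The chaperone block is red except for ero1a, pdia3 and in part p4hb, red extends to derl2, edem1, syvn1, sel1l and atf6, and the ATF4 block is mixed.

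Taking hspa5 as the reference, each of the other 14508 tested genes was correlated with it over the 12 libraries, with 2-sided permutation p-values (100000 resamples) adjusted over all of them. By Pearson's r, 8 of 19 chaperones passed an adjusted p of 0.05 with a positive sign, where 0.682% of all genes did. At an unadjusted permutation p under 0.05 there were 16 of 19, against 8.6% of all genes. By Spearman's rho no gene passed the adjustment (0%), and 16 of the 19 had a positive rho with an unadjusted p under 0.05, against 6.85% of all genes. The highest r was that of dnajc3a, a co-chaperone known in mammals to inhibit the kinase PERK (r = 0.975, rho = 0.944, adjusted permutation p = 0.0276 and 0.0725). The unadjusted p of 1e-05 behind its r is the smallest the resampling can give. hsp90b1 (r = 0.969), pdia4 (0.964), creld2 (0.956) and hyou1 (0.947) came next and passed, as did calr3b, sdf2l1 and manf. By Pearson's r, the chaperones without an unadjusted p under 0.05 were p4hb (r = 0.439), pdia3 (0.353) and ero1a (-0.478). By rho, ero1a was negative at that level (rho = -0.587, unadjusted permutation p = 0.0495), where 5.72% of all genes were negative.

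The relation rested in part on the 2 livers at the low end. Without glo2+/+ replicates 1 and 3, the livers farthest from the hspa5 median, no gene passed the adjustment over the other 10 libraries (0%), and 11 of 19 chaperones had a positive r with an unadjusted permutation p under 0.05, against 3.97% of all genes. The r of dnajc3a was then 0.911 (unadjusted permutation p = 0.000110, adjusted p = 0.435), that of hyou1 0.917 and that of hsp90b1 0.844. The r of pdia6, a disulfide isomerase, was 0.752 with all libraries and 0.425 without the pair. p4hb went from 0.439 to -0.0210. Among all 14508 other tested genes, ranked by r with hspa5 after removing genotype means, 6 members stood in the top 10 and 9 in the top 50.

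**Figure D5:**
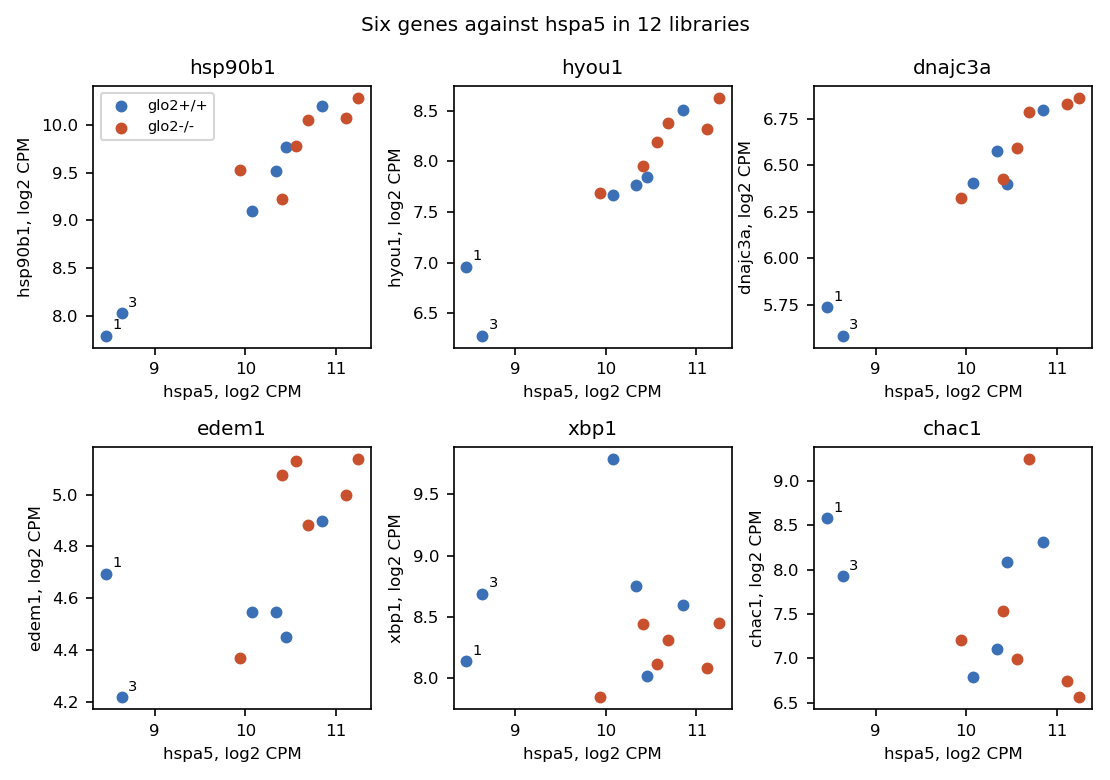
log2 CPM of 6 genes against log2 CPM of hspa5 in the 12 libraries, glo2+/+ in blue and glo2-/- in red, with glo2+/+ replicates 1 and 3 numbered. hsp90b1, hyou1 and dnajc3a follow hspa5 also among the other 10 libraries, edem1 less closely, and xbp1 and chac1 do not follow it.

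The ER degradation genes, which move misfolded proteins out of the ER for destruction by the proteasome, shared this pattern in part. Of the 6, sel1l passed the permutation test with hspa5 (r = 0.833, adjusted permutation p = 0.0454; rho = 0.881, adjusted p = 0.147), where 0.682% of all genes did so by a positive r. derl2 (0.762), syvn1 (0.743) and edem1 (0.641) had an unadjusted p under 0.05, which made 4 of 6 against 8.6% of all genes, and derl1 (0.385) and herpud1 (-0.224) did not. With genotype means removed, r was 0.781 for sel1l, 0.759 for derl2, 0.695 for syvn1 and 0.480 for edem1, and these genes ranked 201, 278, 501 and 1762 among all genes. Without glo2+/+ replicates 1 and 3, and with genotype means not removed, sel1l had an r of 0.780 (adjusted permutation p = 0.563). Without that pair r was 0.736 for edem1, 0.670 for syvn1, 0.549 for derl2 and 0.451 for derl1. Of the 6 genes, 3 (sel1l, edem1 and syvn1) had a positive r with an unadjusted permutation p under 0.05, against 3.97% of all genes. The median r between chaperones and degradation genes, with genotype means removed, was 0.526 over 120 pairs. Within the arm it was 0.225 over 15 pairs, with edem1, syvn1 and sel1l closest to each other (edem1 with syvn1 0.841, edem1 with sel1l 0.820). herpud1 stood apart, with a median r of -0.109 to the other 5.

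edem1, a lectin that directs misfolded glycoproteins to degradation, had the smallest unadjusted p of all members. Its level ran from 18.5 to 29.7 CPM in glo2+/+ (median 23.3) and from 20.6 to 35.0 CPM in glo2-/- livers (median 32.7). Of the 6 knockout livers, 4 were above every wild type, and replicate 6 was below the wild-type median. The log2 fold change was 0.38 (SE 0.15, 95% interval 0.06 to 0.70, adjusted p = 0.819), and 0.33 without glo2+/+ replicates 1 and 3.

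The complex that edem1 feeds is built around syvn1, the ubiquitin ligase HRD1, and its partner sel1l. syvn1 ranged from 49.5 to 87.7 CPM in glo2+/+ (median 72.1) and from 51.4 to 97.8 CPM in glo2-/- livers (median 87.9). sel1l ranged from 30.5 to 67.5 CPM (median 47.2) and from 43.1 to 69.8 CPM (median 57.9). Both were lowest in glo2+/+ replicate 3 and highest in glo2-/- replicate 5, with ranges that overlapped widely. syvn1 had a log2 fold change of 0.24 (SE 0.18, adjusted p = 0.848) and sel1l one of 0.28 (SE 0.17, adjusted p = 0.833).

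herpud1, which links this complex to other degradation factors, ranged from 51.8 to 87.2 CPM in glo2+/+ (median 69.2) and from 59.7 to 112 CPM in glo2-/- livers (median 81.9). Its highest libraries were glo2-/- replicates 4, 2 and 1 (112, 103 and 91.9 CPM), and the low-chaperone glo2+/+ replicates 1 and 3 held 84.7 and 87.2 CPM, the highest of the wild types. Its r with hspa5 was 0.0345 without those wild types. Its log2 fold change was 0.25 (SE 0.19, adjusted p = 0.850), and 0.43 without them. derl1 and derl2, membrane proteins of the exit channel, had log2 fold changes of 0.04 and 0.15. The median of the arm was 0.25, and 0.12 without glo2+/+ replicates 1 and 3.

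None of the 4 sensors and factors passed the permutation test with hspa5. xbp1 encodes the factor made active when IRE1 splices its RNA; counts per gene do not separate the spliced from the unspliced form. It ranged from 260 to 882 CPM in glo2+/+ (median 400) and from 230 to 351 CPM in glo2-/- livers (median 297). All 6 knockout livers were below the wild-type median, and the 882 CPM of glo2+/+ replicate 2 stood far above the rest. The log2 fold change was -0.57 (SE 0.26, 95% interval -1.13 to -0.01, adjusted p = 0.819), and -0.25 without that liver. Its r with hspa5 was -0.0664 over all libraries and 0.229 after removing genotype means. Within glo2+/+ alone it was 0.175 and within glo2-/- alone 0.532, which was not tested.

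The sensors themselves varied little. ern1, which encodes IRE1, lay between 8.57 and 13.3 CPM in glo2+/+ (median 11.9) and between 8.64 and 15.2 CPM in glo2-/- livers (median 13.0). eif2ak3, the kinase PERK that phosphorylates eIF2α, lay between 23.1 and 32.0 CPM (median 26.8) and between 20.8 and 30.2 CPM (median 22.9). atf6, a sensor that is cut to release a transcription factor, lay between 54.5 and 101 CPM (median 78.4) and between 57.0 and 92.7 CPM (median 65.5). The genotypes overlapped for all 3. ern1 had a log2 fold change of 0.11 (SE 0.15, adjusted p = 0.923), eif2ak3 one of -0.16 (SE 0.13, adjusted p = 0.865) and atf6 one of -0.15 (SE 0.17, adjusted p = 0.903). Across livers atf6 came closest to hspa5 of the 4, with r = 0.465 over all libraries and 0.717 after removing genotype means. Its permutation p over all libraries was 0.134 (adjusted p = 0.463). Without glo2+/+ replicates 1 and 3, and with genotype means not removed, its r was 0.183. Within glo2+/+ alone its r was 0.746 and within glo2-/- alone 0.734.

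The ATF4 arm showed no common direction between genotypes and no common pattern between livers. Among its 11 tested genes the log2 fold change was positive in 5 and negative in 6, with a median of -0.002, and the smallest adjusted p was 0.819. Over its 55 pairs the median r was -0.0288, and with the chaperones it was 0.164 over 220 pairs. The copies of ATF4 itself were steady. atf4a ranged from 80.2 to 140 CPM in glo2+/+ (median 115) and from 100.2 to 167 CPM in glo2-/- livers (median 131). atf4b ranged from 141 to 192 CPM (median 169) and from 150 to 243 CPM (median 191). Both copies overlapped between the genotypes and were lowest in glo2+/+ replicate 1. atf4a had a log2 fold change of 0.19 (SE 0.15, adjusted p = 0.871) and atf4b one of 0.20 (SE 0.15, adjusted p = 0.848). ATF4 is controlled mainly at translation, which RNA levels do not show.

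Of the ATF4 targets that drive cell death or damp the response, none passed the test. ddit3, the death-promoting factor CHOP, was low and even, from 6.71 to 11.6 CPM in glo2+/+ (median 8.02) and from 6.53 to 11.3 CPM in glo2-/- livers (median 8.21). Its log2 fold change was -0.002 (SE 0.19, 95% interval -0.41 to 0.40). trib3, a pseudokinase that binds ATF4, had 6.11 to 11.4 CPM (median 9.02) and 7.35 to 16.3 CPM (median 9.95), a log2 fold change of 0.26 (SE 0.22, adjusted p = 0.875). sesn2, a stress-induced inhibitor of mTORC1 signalling, had 1.86 to 4.85 CPM in glo2+/+ (median 3.03) and 1.46 to 3.29 CPM in glo2-/- livers (median 1.99). In 5 of 6 knockout livers sesn2 was below the wild-type median, on 26 to 78 counts per library. Its log2 fold change was -0.52 (SE 0.25, adjusted p = 0.819), and -0.35 without glo2+/+ replicate 2.

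One stress-induced gene, ppp1r15a, was high in a few livers of both genotypes. ppp1r15a encodes GADD34, the phosphatase subunit that reverses the phosphorylation of eIF2α. It reached 18.1 CPM in glo2+/+ replicate 1, 13.3 in glo2-/- replicate 4 and 10.3 in glo2+/+ replicate 3. In the other 9 livers it lay between 1.67 and 4.16 CPM, and the medians were 3.81 in glo2+/+ and 3.78 in glo2-/-. Both low-chaperone wild types were thus high in ppp1r15a, and its r with hspa5 was -0.695 (rho = -0.671, unadjusted permutation p = 0.0162 and 0.0208, adjusted p = 0.199 and 0.314). A negative r at an unadjusted p under 0.05 was found for 7.4% of all genes. Without those wild types r was -0.170. atf4a was the other ATF4-arm gene with an unadjusted p under 0.05 (r = 0.725, rho = 0.643, unadjusted permutation p = 0.00833 and 0.0275, adjusted p = 0.156 and 0.335), and its r was 0.550 without them. A positive r at that level was found for 1 of the 11 ATF4-arm genes, or 9.09%, which is near the 8.6% of all genes.

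chac1, an enzyme that degrades glutathione, ranged from 110 to 382 CPM in glo2+/+ (median 258) and from 94.3 to 607 CPM in glo2-/- livers (median 137). The 607 CPM were those of glo2-/- replicate 4, and the other 5 knockout livers stayed at or under 185 CPM. Its log2 fold change was -0.21 (SE 0.46). atf3, a stress-induced repressor, ranged from 3.37 to 22.2 CPM in glo2+/+ (median 8.58) and from 4.32 to 18.1 CPM in glo2-/- livers (median 13.5). It ran opposite to chac1 across livers (r = -0.837 with genotype means removed) and was low where ppp1r15a was high (r = -0.669).

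The amino acid genes of the arm were low or even. asns, asparagine synthetase, lay between 18.2 and 42.99 CPM in glo2+/+ (median 23.9) and between 21.8 and 33.2 CPM in glo2-/- livers (median 29.9), with a log2 fold change of 0.07 (SE 0.21, adjusted p = 0.969). psat1, the second enzyme of serine synthesis, lay between 0.465 and 3.98 CPM (median 1.08) and between 0.876 and 1.73 CPM (median 1.25), on 7 to 64 counts per library. Both were highest in glo2+/+ replicate 2 and lowest in glo2+/+ replicate 3, and they made the closest pair of the arm (r = 0.810). shmt2, which breaks down serine in mitochondria, lay between 35.8 and 67.9 CPM over all livers (log2 fold change -0.05, SE 0.15).

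Markers of other cell types were set beside hspa5, since plasma cells and the acinar cells of the pancreas are also rich in chaperones. Of 13 marker lists, 0 passed an adjusted permutation p of 0.05 with hspa5 over the 12 libraries. The exocrine pancreas list (19 genes) summed to 31.2 to 2435 CPM in glo2+/+ and 72.7 to 6934 CPM in glo2-/- livers. Its r with hspa5 was -0.0780 (rho = -0.0559, adjusted permutation p = 0.890 and 0.870), and glo2+/+ replicates 1 and 3 held 767 and 1318 CPM, within the wild-type range. The genotypes differed in sign, with an r of -0.446 within glo2+/+ alone and 0.457 within glo2-/- alone. These values were not tested, so the r over all libraries does not show that pancreas content and hspa5 are unrelated. The B and plasma cell list (8 genes) summed to 1.68 to 4.87 CPM, with cd79b at 0 in all libraries. The names ighz, mzb1, jchain and pou2af1 of this list did not match, so their levels are not in the sum. The low sum therefore does not show that plasma cells were absent. The r of this list with hspa5 was 0.334 (unadjusted permutation p = 0.288), and 0.0367 without glo2+/+ replicates 1 and 3. Within glo2+/+ alone it was 0.578 and within glo2-/- alone -0.182, which was not tested. Over all 12 libraries the strongest relation was that of the macrophage list (18 genes), which summed to 201 to 372 CPM in glo2+/+ and 134 to 264 CPM in glo2-/- livers, with 372 and 320 CPM in glo2+/+ replicates 1 and 3. Its r with hspa5 was -0.646 (rho = -0.552, unadjusted permutation p = 0.0219 and 0.0669, adjusted p = 0.284 and 0.602) and -0.242 without those libraries. Few genes carried the sum: HMOX1 alone spanned 3.37 to 226 CPM and cd74a 32.9 to 108 CPM. Its part in the chaperone differences was not tested. Without glo2+/+ replicates 1 and 3 the erythrocyte list came closest to hspa5 (r = -0.673, unadjusted permutation p = 0.0315, adjusted p = 0.409; with all libraries r = -0.140). Hepatocyte markers in glo2+/+ replicates 1 and 3 summed to 286457 and 357249 CPM, the latter the highest of the wild types.

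Beyond the 43 genes, no gene of the other pathway lists passed the test between the genotypes. Of 157 further genes in 7 lists, 140 were tested with edgeR and 0 were called. The log2 fold change was positive in 79 and negative in 61, with a median of 0.03, where 47.6% of all tested genes were positive. At an unadjusted p under 0.05 there were 0 on the higher side (2.47% of all tested genes) and 2 on the lower (3.41%). They were mia3, which helps load large cargo at ER exit sites (-0.26, SE 0.11, adjusted p = 0.819), and EIF2AK4, the amino acid sensing kinase GCN2 (-0.34, SE 0.15, adjusted p = 0.819). The highest median log2 fold change was that of the 23 genes for translocation into the ER, signal peptide removal and glycan transfer (0.10, 17 positive). The lowest was that of 19 other stress response factors (-0.16, 4 positive). Other ER folding enzymes had a median of 0.06 over 29 genes, with ERO1B, an oxidase like ero1a, at 0.28 (SE 0.16). Other degradation genes had 0.02 over 21, and the other ATF4 targets of amino acid metabolism 0.04 over 17. ERO1B averaged 217 CPM in glo2+/+ and 265 CPM in glo2-/- livers, where ero1a averaged 2.03 and 1.77 CPM. With genotype means removed, r with hspa5 was 0.553 for ERO1B and -0.458 for ero1a.

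With hspa5, the median r of these 140 genes (genotype means removed) was 0.0863, where that of all tested genes was -0.0177. By list it was highest for ER retrieval and export (0.426 over 18 genes), then for other folding enzymes (0.234 over 29), and lowest for the other stress response factors (-0.254). Of the 140, 2 stood among the 100 genes closest to hspa5 out of 14508 ranked, a count that was not tested. Of genes outside the 43, the 10 closest in pattern to hspa5 were get1 (r = 0.956), ERGIC3 (0.949), TESK1 (0.943), MTTP (0.923), METTL3 (0.920), PTBP1 (0.917), ATP6V0A2 (0.916), pak2b (0.914), MTFR1L (0.913) and arf6b (0.913). This ranking was over 12 libraries with genotype means removed, and it carries no test.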

How the data were processed

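Reads of 12 whole-liver libraries were processed with Trim Galore 0.6.4 (trimming) and kallisto 0.4.6 (quantification), with build GRCz11, per the submitters' processing notes. The authors deposited estimated counts per gene, and they deposited TPM for the same genes. The step from transcripts to genes and the strand setting are not stated in these sources. How reads were divided between gene copies (calr3a and calr3b, the dnajb9 pair) and between overlapping genes is therefore uncertain. Non-whole values (tolerance 0.001) made up 19.1% of the estimated counts; all were rounded to whole numbers.

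Genes were filtered with filterByExpr, scaled by TMM factors and tested with edgeR 4.0.16 (R 4.3.3) by genotype alone, with Benjamini-Hochberg adjustment over all 14509 genes. Log2 CPM used a prior count of 2. DESeq2 1.42.0, limma 3.58.1 on log2(TPM + 1) and log2(TPM + 0.1), other filters, a pancreas covariate and left-out libraries were alternatives. Scripts were tested on simulated data.

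The members and lists were chosen with earlier results of these data known. Named with full statistics are hspa5, the 4 members per arm with the smallest unadjusted p, and xbp1, atf4a, atf4b, ddit3, asns and phgdh. Also named are the 10 non-members closest to hspa5 (average log2 CPM at least 1) and up to 2 genes per further list; other genes are named for their role or were chosen after their values were seen. Of 161 further pathway names 5 did not match, and of 148 marker names 23. Permutation p-values with hspa5, planned with adjustment over 40 members, were adjusted over all tested genes. Replicate numbers were not shown to pair libraries (r of same-numbered deviations -0.280 to 0.205), which does not exclude pairing. Promoter and protein sequences were not analysed here.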

Additional observations from a re-analysis of the deposited data

Results flagged for a closer look

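There were 82 sets of 6 values (41 genes in each genotype). Of these, 9 held a library that lay far from the other 5 by Dixon's test at its 95% limit. Chance gives such a result in about 1 of 20 sets, or about 4 here. The sets share the same 12 libraries and hold genes that vary together, so the 9 are not separate results. In log2 CPM, glo2+/+ replicate 3 was low in canx (7.91, others 8.51 to 8.83), dnajb9 (ENSDARG00000016886) (2.31, others 3.96 to 4.62) and dnajb9 (ENSDARG00000052072) (0.145, others 1.81 to 2.56). The liver of glo2-/- replicate 6 was low in dnajb11 (5.87, others 6.34 to 6.55), edem1 (4.37, others 4.88 to 5.14), syvn1 (5.69, others 6.43 to 6.61) and asns (4.45, others 4.87 to 5.06). Replicate 4 of glo2-/- was high in chac1 (9.25, others 6.56 to 7.53) and ppp1r15a (3.75, others 1.40 to 2.00).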

How the results depend on the processing

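No member was called under any alternative run; the lowest adjusted p was 0.460, for edem1 without glo2-/- replicate 6. The count of members at an unadjusted p under 0.05 (2) was 1 without the 3 libraries highest in pancreas markers and 1 to 8 with single libraries left out (8 without glo2+/+ replicate 5). The shares of all genes at that level in these runs are not given here, so these counts cannot be set against them. Members with a positive log2 fold change (30) numbered 29 to 33 with single libraries left out and 35 and 33 with limma on log2(TPM + 0.1) and log2(TPM + 1), where 63.0% and 62.4% of all genes were positive. Over all genes, 1 was called by edgeR, 34 by DESeq2 and 1 to 3 with single libraries left out. Leaving out glo2+/+ replicates 1 and 3 together, added after seeing the data, gave 3 genes called and 26 of 41 members positive. Median log2 fold changes were then 0.064 (chaperones) and 0.12 (degradation), and the chaperones' median pairwise r was 0.574; the cause was not tested.

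With single libraries left out, the median log2 fold changes ranged from 0.20 to 0.50 (chaperones, lowest without glo2+/+ replicate 3), 0.17 to 0.33 (degradation), -0.21 to -0.09 (sensors and factors) and -0.07 to 0.11 (ATF4 arm). Median pairwise r ranged from 0.617 to 0.783 (chaperones), 0.0586 to 0.431 (degradation) and -0.0902 to 0.00571 (ATF4 arm). On log2(TPM + 1) and log2(TPM + 0.1) it was 0.695 and 0.690 for degradation and 0.150 and 0.163 for the ATF4 arm; the median over all gene pairs was 0.212 on log2(TPM + 1). The sign of ddit3 turned under DESeq2 (0.0018), limma on log2(TPM + 0.1) (0.085) and log2(TPM + 1) (0.079), without the 3 libraries highest in pancreas markers (0.18) and without glo2+/+ replicates 1 and 3 (0.051). With single libraries left out ddit3 ranged from -0.083 to 0.099 and asns from -0.026 to 0.24.

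With the replicate number as a block, 5 members had an unadjusted p under 0.05, all positive, and 0 were called. The share of all genes at that level in this fit is not given here, so the 5 cannot be set against it. The replicate numbers are not shown to pair the libraries, and the block changed no call.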
